A study of Mus musculus with 4 samples.

Results

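Amino acid and iron uptake transporters were examined for N6-methyladenosine (m6A) in mouse splenic NK cells. The set held 10 genes, chosen by name: Slc3a2, Slc7a5, Slc7a6, Slc1a5, Slc38a1, Slc38a2, Slc7a1, Tfrc, Slc11a2 and Slc40a1. Their peaks were the entries of the m6A peak list whose Ensembl gene identifier was that of a listed gene, which gave 14 of 20727 distinct peaks. Methylated RNA immunoprecipitation sequencing had been applied to splenic NK cells of C57BL/6 mice. One group was 2 immunoprecipitates made with an antibody against m6A, and the other was 2 libraries of input RNA, the same fragmented poly(A) RNA without antibody. Both groups came from mice given an IL-15 expression plasmid to expand NK cells, which were then sorted by flow cytometry, as the methods state. No source used here says whether the replicates came from separate animals.

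The list gave 1 fold enrichment (immunoprecipitate reads over input reads) and 1 log10 p for each peak, over all 4 libraries. These are the authors' values, with no value per library, so no error between replicates and no test between groups could be computed here. The p-value is that of peak calling for a single peak and is not adjusted. It compares read numbers within these libraries, so an abundant transcript can reach a very low p at a small fold. The depth of the libraries is unknown.

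m6A is written onto mRNA in the nucleus by a complex around METTL3, mostly in the consensus DRACH (any base except C, then a purine, then A and C, then any base except G), and GGAC is its most frequent core. Reader proteins bind the mark and change the stability or translation of the transcript. Growing lymphocytes import amino acids and iron through a small set of carriers. CD98, the pairing of the heavy chain encoded by Slc3a2 with a light chain such as that of Slc7a5, brings in leucine and other large neutral amino acids, which keep the kinase mTORC1 active. Transferrin receptor 1, encoded by Tfrc, takes up iron bound to transferrin, Slc11a2 (DMT1) moves that iron out of the endosome, and Slc40a1 (ferroportin) exports iron from the cell. The mRNAs of these iron genes are known targets of iron regulatory proteins, which bind a stem-loop called the iron responsive element.

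Sequences under peaks of the set are given here from GENCODE transcripts on GRCm38, written 5′ to 3′ on the strand of the gene. The coding parts of 3 peaks are shown whole, since they hold the stop codon of Slc3a2 and of Slc1a5 and the one coding-sequence peak of the set, and capitals mark the DRACH sites.
Slc3a2, last 206 nt of the coding sequence, chr19:8707723-8707928, minus strand: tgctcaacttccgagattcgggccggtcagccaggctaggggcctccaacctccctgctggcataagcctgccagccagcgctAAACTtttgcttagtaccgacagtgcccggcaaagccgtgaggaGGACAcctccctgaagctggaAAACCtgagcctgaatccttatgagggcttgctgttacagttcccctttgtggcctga
Slc1a5, last 92 nt of the coding sequence, chr7:16797648-16797739, plus strand: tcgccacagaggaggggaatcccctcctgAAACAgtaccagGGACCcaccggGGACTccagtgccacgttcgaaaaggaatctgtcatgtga
Slc1a5, first exon, 150 nt, chr7:16781966-16782115, plus strand: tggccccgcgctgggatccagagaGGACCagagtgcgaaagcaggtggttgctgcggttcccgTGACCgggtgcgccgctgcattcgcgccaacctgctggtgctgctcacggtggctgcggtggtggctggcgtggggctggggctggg

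For peaks with GGAC in untranslated regions, and for the Tfrc peak in an intron, 30 nt around the GGAC nearest to the centre of the peak are shown, with GGAC in capitals. The window of Slc3a2 is within the coding part above. In the window of Slc11a2 the GGAC is followed by G, so it is not a DRACH site.
Slc1a5, 3′ UTR, chr7:16797796-16797825, plus strand: gagctggagaaatGGACtggatgagggctc
Slc11a2, 5′ UTR of an isoform, chr15:100424040-100424069, minus strand: gaggagcacacctGGACgctgacacaaaca
Slc38a1, 5′ UTR of an isoform, chr15:96641782-96641811, minus strand: agtctgcatcttgGGACtggccggcagcgg
Slc38a2, 5′ UTR, chr15:96699504-96699533, minus strand: aaataaaagaaaaGGACtccgtcactgtta
Slc38a2, 3′ UTR, chr15:96687647-96687676, minus strand: caataaactggttGGACatcaacttaagtt
Slc40a1, 3′ UTR, chr1:45908325-45908354, minus strand: cagtaccaacatgGGACattgccttaactt
Tfrc, intron, chr16:32620779-32620808, plus strand: ttttgtccaggtgGGACttggatctaaatt

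A peak was found in 8 of the 10 genes (80%), against 46.3% of all annotated protein-coding genes. That background includes genes that NK cells do not express. Of the 8 genes, 6 had 2 peaks and 2 (Tfrc and Slc11a2) had 1. No peak was assigned to Slc7a5 or Slc7a6, the light chains within the set that pair with Slc3a2, and 0 peaks of other genes lay over either locus. They are not its only partners, and Slc7a11, outside the set, did have a peak, as given below. The median fold enrichment of the 14 peaks was 2.57, beside 2.66 over all peaks, with extremes of 1.55 and 37.9. A p-value under 0.001 was reached by 10 of the 14 (71.4%), against 61.5% of all peaks. Peaks enriched 5-fold or more are called strong here, since the pathway analysis of the study took its genes at that limit, and these were 3 of the 14 (21.4%), against 34.6% of all peaks. By gene this was 3 of 8 (37.5%), against 49.6% of all genes with a peak. Nothing particular to the transporters was read from these shares. The 3 strong peaks lay in Slc3a2, Slc7a1 and Slc11a2, and no peak of the set lay between 3.67 and 20.7.

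**Figure D1:**
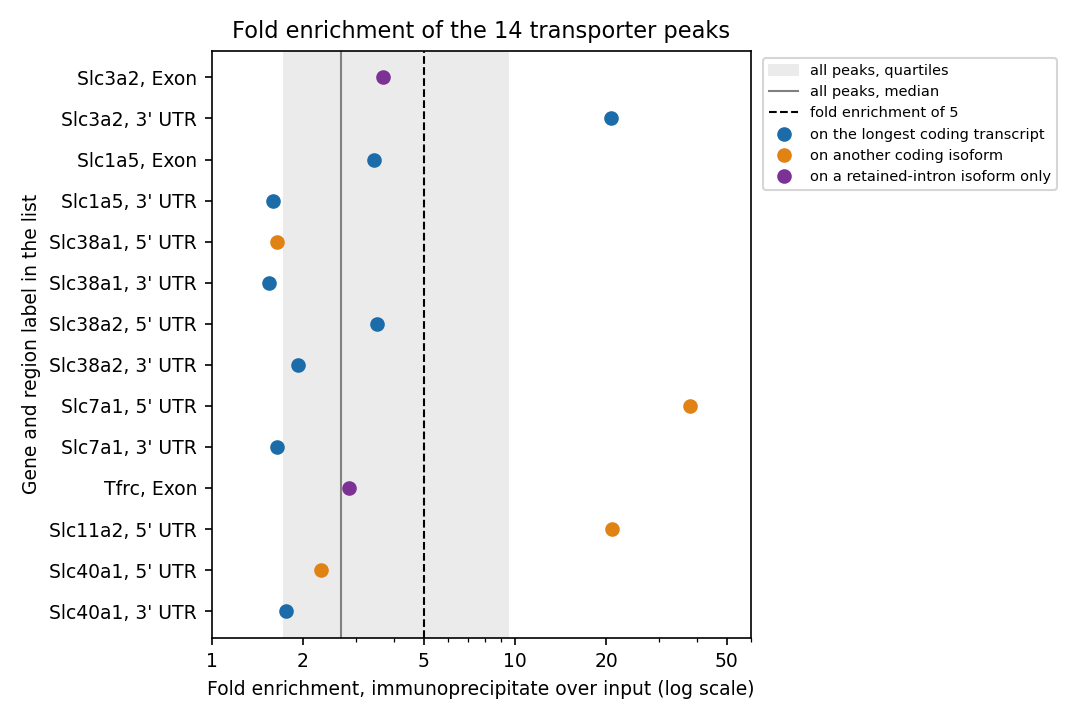
Fold enrichment (x axis, log scale) of each of the 14 transporter peaks (rows, with the region label of the list), coloured by the kind of transcript the peak lies on. The grey band spans the quartiles of all peaks (1.73 to 9.48), the grey line is their median (2.66) and the dashed line marks 5. The peaks of Slc3a2 (20.7), Slc11a2 (20.9) and Slc7a1 (37.9) stand to the right of the dashed line, and the other 11 lie between 1.55 and 3.67.

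Among the amino acid carriers, the heavy chain of CD98 had the clearest signal. The Slc3a2 peak at its stop codon (ENSMUSG00000010095, chr19:8707390-8707928, GRCm38) was enriched 20.7-fold at a log10 p of -96.2. It lay in exon 10, the last exon of the longest coding transcript, and its 539 nt ran from position -205 to position 333, counted from the last base of the stop codon. Its centre was 64 nt past the stop, which is the position for which m6A is best known. It held 10 DRACH sites, of which 1 was GGAC. Among all peaks, 156 (0.753%) had a fold and a significance at least as high as this one, and 37 of those also covered the stop codon of a longest coding transcript. In the 3210 peaks that covered such a stop codon the median fold was 2.34, and 18.7% reached the fold of Slc3a2. Of 360 peaks within 10% of its fold, 97.8% had a weaker p. The Slc3a2 peak thus combined a high fold with a high significance, which neither of the other strong peaks of the set did to this degree.

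The further peak of Slc3a2 (chr19:8713241-8713330) was enriched 3.67-fold at a log10 p of -5.78. Relative to the longest coding transcript this is intron 2, and the peak lay on exon 2 of a retained-intron isoform. Its 90 nt held 0 DRACH sites.

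The light chains Slc7a5 (LAT1) and Slc7a6 (y+LAT2) had no peak although their transcripts hold the motif. The Slc7a5 transcript (ENSMUSG00000040010, chromosome 8) had 59 DRACH sites, or 16.8 per kb, and 21 GGAC. For Slc7a6 (ENSMUSG00000031904, chromosome 8) these were 78 sites, 20.8 per kb and 17 GGAC. The transcript of Slc3a2 held 50 sites, or 17.8 per kb, and 15 GGAC. The median over 9614 coding transcripts with a peak was 20.2 per kb. The list holds no expression values, so a transcript with few reads and a transcript with little m6A cannot be told apart.

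Slc1a5 (ASCT2, ENSMUSG00000001918, chromosome 7), a carrier of glutamine and other small neutral amino acids, had 2 peaks on its longest coding transcript. The one in exon 1 (chr7:16781966-16782115, 150 nt) lay in the coding sequence and was enriched 3.44-fold at a log10 p of -7.05. It held 2 DRACH sites in a stretch of 70.7% GC. The one at the 3′ end (chr7:16797648-16798244, 597 nt) had a fold of 1.59 and a log10 p of -16.4. This peak ran from position -91 to position 505 relative to the last base of the stop codon, in a 3′ UTR of 535 nt, so it covered nearly the whole 3′ UTR. It held 11 DRACH sites, 4 of them GGAC. The stop codon was thus covered in Slc1a5 as in Slc3a2, but at a fold of 1.59 against 20.7.

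Slc38a2 (SNAT2, ENSMUSG00000022462, chromosome 15), a sodium-coupled neutral amino acid carrier that cells induce when amino acids run short, had a peak at each end of its transcript. The 5′ UTR peak (chr15:96699459-96699698, 240 nt) was enriched 3.51-fold at a log10 p of -7.06. It covered positions 33 to 272 of a 5′ UTR of 410 nt and held 3 DRACH sites. The 3′ UTR peak (chr15:96687394-96687871, 478 nt) had a fold of 1.93 and a log10 p of -16.7, and ended 2 nt before the annotated transcript end. Its centre was 2494 nt past the stop codon, and it held 10 DRACH sites in a stretch of 31.8% GC.

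Slc38a1 (SNAT1, ENSMUSG00000023169, chromosome 15), its close relative, had weak peaks. The peak near the 5′ end (chr15:96641642-96641822) was enriched 1.64-fold at a log10 p of -2.57, and the peak in the 3′ UTR (chr15:96573875-96573935) 1.55-fold at -1.84. Neither reached a p-value under 0.001. The former lay in the first exon of a shorter coding isoform, inside the first intron of the longest one, with 4 DRACH sites. The latter was 61 nt long, 2806 nt past the stop codon in a 3′ UTR of 5293 nt, with 1 DRACH site.

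Slc7a1 (CAT1, ENSMUSG00000041313, chromosome 5), a carrier of arginine and lysine, held the highest fold of the set. The peak labelled 5′ UTR (chr5:148371289-148392207) was enriched 37.9-fold at a log10 p of -8.12. Its genomic span of 20919 nt fell inside the first intron of the longest coding transcript. It met 1 of 4 coding isoforms, over 258 nt of its first exon, and 1049 nt of its span were exonic in any isoform. The same pair of fold and log10 p occurred in 49 other peaks of the list. Such repeated pairs were common, in 76% of strong peaks and 30.6% of weaker ones. Of 240 peaks within 10% of its fold, 26.7% had a weaker p. The 3′ UTR peak (chr5:148328308-148328398, 91 nt) had a fold of 1.64 and a log10 p of -2.20, short of a p-value of 0.001, and lay 4087 nt past the stop codon with 0 DRACH sites. The high fold of Slc7a1 was therefore not on its longest coding transcript, and the peak on that transcript was weak.

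**Figure D2:**
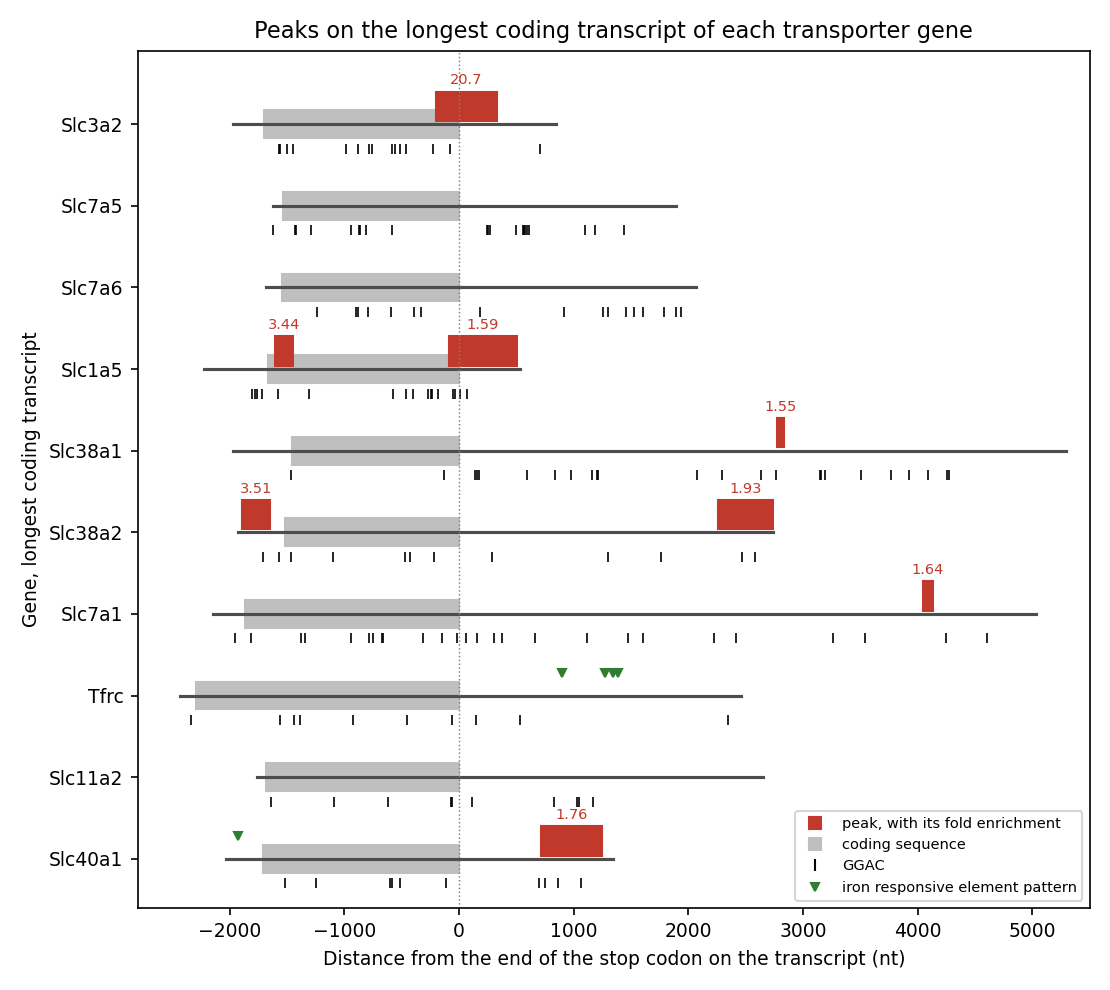
Longest coding transcript of each of the 10 transporter genes (rows), aligned at the end of the stop codon (x axis, distance in nt on the transcript). Grey boxes are coding sequence, red boxes the 8 peaks that lie on these transcripts with their fold enrichment, black ticks GGAC and green triangles the iron responsive element pattern. Slc3a2 and Slc1a5 have a peak over the stop codon, Slc38a1, Slc38a2, Slc7a1 and Slc40a1 have one farther along the 3′ UTR, and Slc7a5, Slc7a6, Tfrc and Slc11a2 have none.

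Of the 4 peaks of the iron genes Tfrc, Slc11a2 and Slc40a1, 1 lay on a longest coding transcript, that of Slc40a1. The difference from the amino acid carriers was not tested.

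The single peak of Tfrc (ENSMUSG00000022797, chr16:32620697-32620877, 181 nt) was enriched 2.84-fold at a log10 p of -1.42, the weakest p of the set. Of all peaks, 96.7% had a p at least as low. It lay on exon 4 of a retained-intron isoform, within intron 10 of the longest coding one, and the same pair of values occurred in 56 other peaks. No peak lay on the Tfrc coding transcript itself, which has 109 DRACH sites (22.3 per kb) and a 3′ UTR of 2458 nt. That 3′ UTR is where iron regulatory proteins bind and protect the mRNA when iron is low.

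Iron responsive elements were searched for on the longest coding transcripts as the loop CAGTGN closed by 5 base pairs (G with T allowed) with a C just before the stem, on the transcript strand. The pattern was found in 272 of 21901 coding genes (1.24%). Among the transporters it was found 4 times in the 3′ UTR of Tfrc, 895, 1274, 1339 and 1386 nt past the stop codon, and 1 time in the 5′ UTR of Slc40a1, 218 nt before the start codon. Capitals mark the loop.
Tfrc, chr16:32631220-32631247, plus strand: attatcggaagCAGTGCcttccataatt
Tfrc, chr16:32631599-32631626, plus strand: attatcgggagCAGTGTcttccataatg
Tfrc, chr16:32631664-32631691, plus strand: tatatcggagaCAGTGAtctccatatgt
Tfrc, chr16:32631711-32631738, plus strand: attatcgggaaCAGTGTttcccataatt
Slc40a1, chr1:45925465-45925492, minus strand: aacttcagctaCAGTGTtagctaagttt
Of these 5 matches, 0 lay in a peak. In the genome the nearest peak of the same gene was 10354 to 10845 nt from the Tfrc matches and 948 nt from that of Slc40a1. No match was found in any isoform of Slc11a2, which says only that this exact pattern is not in these sequences.

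Slc40a1 (ENSMUSG00000025993, chromosome 1) had the most significant peak of the set. Its 3′ UTR peak (chr1:45908158-45908696, 539 nt) had a log10 p of -187, rank 221 among all peaks, at a fold enrichment of 1.76. Its centre was 979 nt past the stop codon in a 3′ UTR of 1338 nt. It held 17 DRACH sites, or 31.5 per kb, the highest density of the 14 peaks, and 3 of them were GGAC. The peak labelled 5′ UTR (chr1:45926429-45926519, 91 nt) had a fold of 2.30 and a log10 p of -3.55. It lay 847 nt upstream of the start of the longest coding transcript, on the first exon of 3 of the 4 coding isoforms, and 0 of these 3 held the iron responsive element pattern.

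Ferroportin is best known in the spleen from macrophages that recycle iron from red blood cells. Of 14 splenic macrophage markers, 13 had a peak (92.9%), against 46.3% of all annotated protein-coding genes, and Marco had none. The list was drawn up after the values of Slc40a1 were seen. The 13 were Adgre1, C1qa, C1qb, C1qc, Cd163, Cd5l, Cd68, Csf1r, Lyz2, Mrc1, Spic, Treml4 and Vcam1. The lowest log10 p per gene ran from -363 (C1qc) to -35.3 (Adgre1), with -200 at Vcam1, -101 at Cd5l and -85 at Spic. Among 9 NK cell markers all had a peak, from -624 (Gzma) to -25.0 (Ncr1). The median fold was 1.65 for the peaks of the macrophage markers and 1.41 for those of the NK cell markers, beside 2.66 over all peaks. Reads assigned to these macrophage markers were therefore present beside those of NK cell markers in these libraries. The methods for this assay state that splenic NK cells were sorted by flow cytometry and give no gate or purity. A separate section on purification reports a high purity for sorted NK cells, given as a lower bound. The part of other cells in the Slc40a1 peaks was not tested.

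Slc11a2 (ENSMUSG00000023030, chromosome 15) had a single peak (chr15:100423457-100428150), enriched 20.9-fold at a log10 p of -5.57. Its genomic span of 4694 nt ran 3078 nt beyond the annotated gene and lay 455 nt upstream of the start of the longest coding transcript. In this span 469 nt were exonic in isoforms of Slc11a2 and 2056 nt in Gm5475, a gene on the opposite strand. Whether the libraries kept strand is not stated for this assay, so reads of these genes cannot be told apart here. Of 492 peaks within 10% of its fold, 80.7% had a weaker p.

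**Figure D3:**
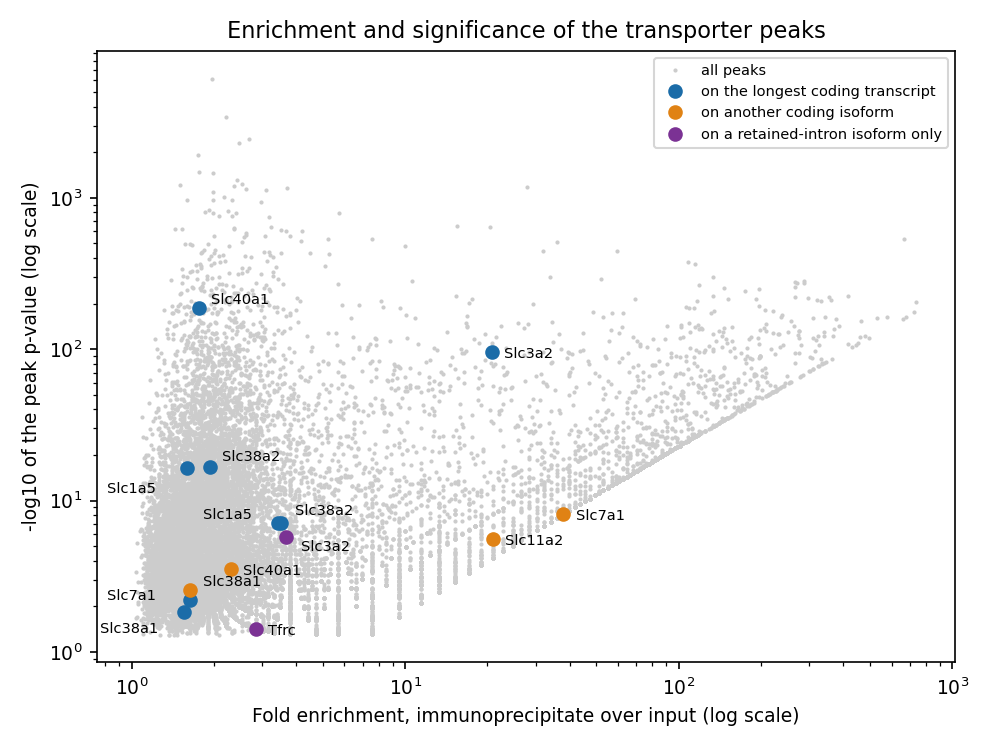
Fold enrichment (x axis) against -log10 of the peak p-value (y axis), both on log scales, for all 20727 peaks (grey) and the 14 transporter peaks (coloured by the kind of transcript they lie on). Slc3a2 at 20.7 lies well above Slc11a2 at 20.9 and Slc7a1 at 37.9, and Slc40a1 is the highest of the set at a fold of 1.76.

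The peaks were next compared by position. On longest coding transcripts lay 8 of the 14 peaks (57.1%), against 86.3% of peaks of all genes with a coding transcript. On another coding isoform alone lay 4 (28.6%, against 4.06%), in Slc38a1, Slc7a1, Slc11a2 and Slc40a1. Each of these carried the 5′ UTR label and lay on a first exon. The isoform used for placement was short in Slc7a1 (675 nt), Slc11a2 (387 nt) and Slc40a1 (451 nt), with 0 nt of annotated 3′ UTR. On a retained-intron isoform alone lay 2, in Slc3a2 and Tfrc (14.3%, against 6.6% on non-coding isoforms alone). Of the 8 peaks on longest coding transcripts, 6 had their centre in the 3′ UTR (75%, 95% Wilson interval 40.9 to 92.9, counting error only), 1 in the coding sequence and 1 in the 5′ UTR. Over all such peaks the shares were 56.5%, 33.6% and 9.94%. The interval for the transporters contained the share of all peaks. It is no test, since it counts peaks as independent while Slc1a5 and Slc38a2 gave 2 each. With the peaks on other coding isoforms placed too, the share in the 3′ UTR was 50%. Among the 6 peaks in the 3′ UTR, 5 had a fold enrichment under 2, against 48.7% of all 3′ UTR peaks, and Slc3a2 was the exception.

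In the 6 genes with 2 peaks, one peak lay towards the 5′ end and the other at the 3′ end. Both lay on the longest coding transcript only in Slc1a5 and Slc38a2. In the other genes the upstream peak lay on another isoform, so the ratios below do not compare ends of 1 transcript there. The labels were 5′ UTR then 3′ UTR in 4 of the 6, against 25.1% of 2748 coding genes with 2 peaks. The peak nearer the 5′ end had the higher fold in 5 of the 6, with ratios from 1.06 in Slc38a1 to 23.1 in Slc7a1. In Slc3a2 the order was the opposite, with a ratio of 0.177. Over all coding genes with 2 peaks the upstream peak had the higher fold in 51.0%, and in 68.0% of the 690 with the same pair of labels. The 3′ peak had the lower p in 4 of the 6, against 60.9% of coding genes with 2 peaks. These were Slc3a2, where it also had the higher fold, and Slc1a5, Slc38a2 and Slc40a1, where it had the lower fold.

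**Figure D4:**
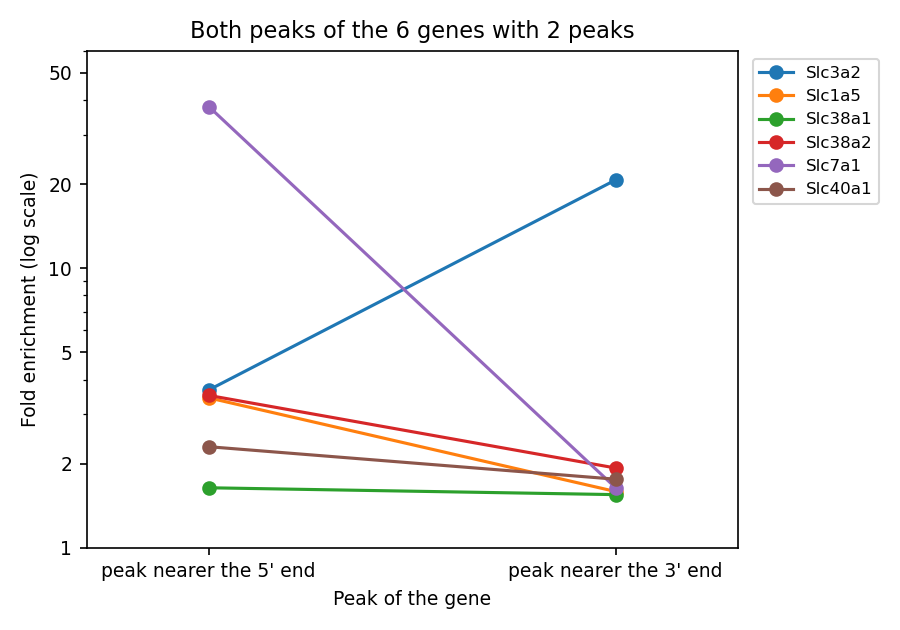
Fold enrichment (y axis, log scale) of the peak nearer the 5′ end and of the peak nearer the 3′ end in the 6 transporter genes with 2 peaks, joined by a line for each gene. The line rises in Slc3a2, from 3.67 to 20.7, and falls in the other 5 genes, most in Slc7a1, from 37.9 to 1.64. Only in Slc1a5 and Slc38a2 do both peaks lie on the longest coding transcript.

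Over the whole exonic span, the motif density of the transporter peaks was close to that of all peaks. It was lower around the peak centre, at 12.5 DRACH sites per kb in 100 nt, where all peaks had 19.1. This rests on 1 window in each of the 8 peaks on longest coding transcripts, and the difference was not tested. The 8 peaks on longest coding transcripts held 54 DRACH sites in 2695 nt, or 20 per kb, beside 20.2 per kb over all such peaks. Of these sites, 17 lay in the 3′ UTR peak of Slc40a1. For GGAC the densities were 4.45 and 4.03 per kb. At least 1 DRACH site was found in 12 of the 14 peaks, and the exceptions were the intron peak of Slc3a2 and the 3′ UTR peak of Slc7a1. GGAC was held by 6 of the 8 peaks on longest coding transcripts. Over all peaks on longest coding transcripts 90.0% held a DRACH site and 54.5% held GGAC.

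Other carriers of the same classes were examined as lists. Of 38 other amino acid transporter genes 17 had a peak (44.7%) and 9 had a strong one. Their 33 peaks had a median fold of 3, and 13 were strong, of which 4 also had a p-value under 0.001. In the transporters above, the 3 strong peaks all had a p-value under 0.001. The share over all strong peaks was not computed, so nothing particular to the transporters was read from this. The highest folds at that significance were 127 at Slc1a1 (log10 p of -62.9), a glutamate carrier, 55.0 at Slc7a11 (-12.4), the cystine carrier that also pairs with Slc3a2, and 20.9 at Slc1a2 (-8.10), a glutamate carrier. The spans of these peaks were 59455, 5677 and 3646 nt.

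Of 25 other iron handling genes 14 had a peak (56.0%) and 4 had a strong one. Their 29 peaks had a median fold of 2.13, and 21 had a p-value under 0.001. The highest folds at that significance were 27.8 at Hmox1 (log10 p of -1180), the heme oxygenase that frees iron from heme, 19.0 at Slc25a28 (-6.91), a mitochondrial iron importer, and 3.79 at Cp (-7.32), the ferroxidase ceruloplasmin. The Hmox1 peak lay in the 3′ UTR and was 327 nt long.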

How the data were processed

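The deposited file was 1 list of m6A peaks for 4 libraries. As the methods and labels give it, the authors mapped reads to GRCm38 with HISAT2, took peaks from exomePeak and assigned genes and regions with ChIPseeker. The fold enrichment is a ratio deposited by the authors, and the significance is a score deposited by the authors, the log10 of the unadjusted peak p-value. How replicates were combined is not stated, and 0 columns gave a value per sample. From the 20751 entries, 24 exact repeats were removed.

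Gene models and sequences came from GENCODE M21 (GRCm38). Each peak was placed by the centre of its exonic part on the longest coding isoform of the assigned gene. The span of a peak includes introns. Placement was tested on simulated transcripts. Python 3.11.15, pandas 2.3.3 and scipy 1.17.1 were used. Named genes were the 10 transporters and, from each list of other genes, the 3 with the highest fold at a p-value under 0.001. Other names were chosen after values were seen. The transporters and lists were chosen with earlier results of these data known. Alternatives changed thresholds, transcript model, peak position, motif and window.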

Additional observations from a re-analysis of the deposited data

How the results depend on the processing

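Of 17 alternative values for 5 results, 12 stayed within 1.5 times of the reported value, or within its interval for the share in the 3′ UTR, and 5 moved. Of the 14 transporter peaks, 8 remained with a minimum fold of 2 and 3 with a minimum of 5. The number of genes with a strong peak rose from 3 to 5 with a threshold of 3. The motif density fell from 20 to 4.45 per kb for GGAC, a narrower motif, and to 12.5 per kb in 100 nt around the peak centre, where all peaks had 19.1. The last value rests on 8 windows, and neither its difference from all peaks nor the cause of the change was tested. The share in the 3′ UTR, 75% as reported, was 42.9% (6 of 14) by the region labels of the list over all peaks, and 50% when peaks on other coding isoforms were placed too, an alternative chosen after seeing the data. Both counted as stayed because the interval, 40.9 to 92.9, is wide. By the limit of 1.5 times, 42.9% would have moved.

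No paired analysis was possible because the list holds only values combined over the libraries. For the same reason no replicate was left out, and no limit set by depth was computed.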

Other observations

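The following genes were named after their values were seen, and nothing is read from them about iron genes as a group. Of the 14 other iron handling genes with a peak, 4 reached a log10 p beyond -100, namely Hmox1 (at the fold of 27.8 given above), Ftl1, Fth1 and Trf. The 3′ UTR peak of Ftl1, the ferritin light chain, was enriched 1.86-fold at a log10 p of -801, and its overlapping 5′ UTR peaks had folds of 2.3 and 2.36. For Fth1, the ferritin heavy chain, the 3′ UTR peak was enriched 1.84-fold at -450. Ferritin genes have processed copies elsewhere in the genome, and how reads shared with such copies were counted was not tested here. Trf, which encodes transferrin, the ligand of the Tfrc product, had a 3′ UTR peak enriched 1.64-fold at -155. The 3′ UTR peak of Slc40a1 had 1.76 and -187.

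Among other amino acid carriers, Slc38a10 had a 3′ UTR peak of 747 nt, enriched 10.4-fold at a log10 p of -58.3. Slc43a2, a system L carrier that works without a heavy chain, had 7 peaks with folds from 1.51 to 9.48. The peak at 9.48 had a log10 p of -1.69, and the same pair of values occurred in 845 peaks of the list.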
